A study of Mus musculus with 8 samples.

Results

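The Schlafen genes were examined in granulocyte-macrophage progenitors (GMPs, the bone marrow cells that give rise to neutrophils and monocytes) from leukaemic and normal mice. The family was taken as 7 listed genes, Slfn1, Slfn2, Slfn3, Slfn4, Slfn5, Slfn8 and Slfn9, and their members on the array were all probe sets to which the platform annotation gives a single gene symbol from that list. This rule found 11 probe sets of 45037 that were not controls, and all 7 genes had at least 1. One more probe set, listed for several genes of which at least 1 is a member, was left out. The comparison was between 4 arrays of L-GMPs, sorted from the marrow of mice whose genotype label is HoxA9+Meis1 AML, and 4 arrays of GMPs, sorted from marrow labelled Normal. HOXA9 and MEIS1 are homeobox transcription factors that act together in acute myeloid leukaemia (AML). Strain, age, the antigens used for the sort and the way the leukaemia was made are not given in the sources used here. Whether replicate arrays stem from different mice is not stated, so their spread, and the p-values that rest on it, may be technical.

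Schlafen genes are named after the German word for sleep, because Slfn1 was found to hold back the growth of developing T cells. Mouse members fall into short proteins (Slfn1 and Slfn2), intermediate ones (Slfn3 and Slfn4) and long ones with a helicase-like region (Slfn5, Slfn8 and Slfn9). Many are induced by type I interferon and by bacterial products in immune cells, and several act on transfer RNA or on growth. The genes lie side by side on mouse chromosome 11, in the order Slfn5, Slfn9, Slfn8, Slfn2, Slfn1, Slfn4, Slfn3 and Slfn14 in the RefSeq gene table of GRCm38.p6, and Slfn14 was not analysed here.

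The promoters of Slfn4, Slfn3, Slfn8 and Slfn9 are shown because Slfn4 was far higher in L-GMPs while its direct neighbour Slfn3 was not, and because the closely related Slfn8 and Slfn9 gave different values in L-GMPs. Each is 300 bases long, from 250 bases before to 50 bases after a transcript start, read in the direction of the gene, from RefSeq on GRCm38.p6. Capitals mark a match to one of the motifs named after the sequences. Slfn4 and Slfn3 are on the plus strand (chr11:83174936-83175235 and chr11:83191080-83191379), Slfn8 and Slfn9 on the minus strand (chr11:83020761-83021060 and chr11:82991781-82992080).
Slfn4: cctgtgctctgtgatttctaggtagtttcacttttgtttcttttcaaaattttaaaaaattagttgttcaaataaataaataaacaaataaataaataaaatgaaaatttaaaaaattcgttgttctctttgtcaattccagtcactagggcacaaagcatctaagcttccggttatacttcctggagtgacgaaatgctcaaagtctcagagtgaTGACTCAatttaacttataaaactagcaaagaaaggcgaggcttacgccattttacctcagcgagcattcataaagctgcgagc
Slfn3: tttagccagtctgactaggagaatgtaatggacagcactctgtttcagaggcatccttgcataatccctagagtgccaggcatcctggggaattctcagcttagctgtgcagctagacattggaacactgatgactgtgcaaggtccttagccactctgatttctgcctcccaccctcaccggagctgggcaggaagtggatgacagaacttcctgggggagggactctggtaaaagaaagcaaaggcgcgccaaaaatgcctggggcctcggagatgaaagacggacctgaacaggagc
Slfn8: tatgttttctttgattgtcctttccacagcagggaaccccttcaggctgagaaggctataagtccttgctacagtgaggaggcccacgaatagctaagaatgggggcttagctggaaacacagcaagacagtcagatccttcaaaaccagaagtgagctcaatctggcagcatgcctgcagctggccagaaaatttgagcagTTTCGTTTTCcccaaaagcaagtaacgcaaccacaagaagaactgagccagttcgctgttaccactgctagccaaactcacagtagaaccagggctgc
Slfn9: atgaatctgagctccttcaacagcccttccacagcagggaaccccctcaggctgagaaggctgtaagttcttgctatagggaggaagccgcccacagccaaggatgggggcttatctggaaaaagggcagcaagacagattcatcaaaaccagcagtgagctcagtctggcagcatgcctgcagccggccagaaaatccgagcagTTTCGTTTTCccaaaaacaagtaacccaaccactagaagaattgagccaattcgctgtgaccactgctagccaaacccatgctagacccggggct

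Motifs searched on both strands were the core of the interferon response element (GAAA, then 2 bases of any kind, then GAAA), the STAT palindrome TTCNNNGAA, the AP-1 site TGACTCA, and a consensus NF-kB site. The interferon element was found at bases 203 to 212 of the Slfn8 sequence and at bases 206 to 215 of the Slfn9 sequence, in both as TTTCGTTTTC on the strand shown. It was present in 3.44% of 32851 RefSeq promoters of this length. A match was also found in the promoter of Slfn5, and in the second Slfn8 promoter of the table, which overlaps the one shown. TGACTCA was found at bases 217 to 223 of the Slfn4 sequence, and in 5.2% of all promoters. The STAT and NF-kB motifs, held by 8.3% and 0.155% of all promoters, were found in none of the Schlafen windows. No motif was found in the windows of Slfn1, Slfn2 and Slfn3, and no matches overlapped. The Slfn8 and Slfn9 promoters shown were identical at 246 of 295 aligned bases (83.4%), whereas those of Slfn4 and Slfn3 were identical at 125 of 233 (53.6%). Apart from pairs among the Slfn8 and Slfn9 windows, Schlafen promoter pairs ranged from 50.7% to 66.1%, so the Slfn4 and Slfn3 pair did not stand out. These matches describe letters in a window and no binding was measured.

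Lower quartiles of the arrays lay at log2 intensities of 3.65 to 3.75, and probe sets under the lower quartile are called dim here. Medians lay at 5.24 to 5.30 on the L-GMP arrays and, higher throughout, at 5.33 to 5.49 on the GMP arrays. On the second principal component L-GMP replicate B, at 0.81, stood apart from A, C and D, at -0.001, -0.36 and -0.39. GMP replicate A stood apart from the other GMP arrays on the third. In GMP replicate D the 3' control probe set of Gapdh exceeded the 5' one by 2.74, against 1.46 to 1.76 on the other GMP arrays and 1.24 to 1.55 on the L-GMP arrays. The labelled cell type was checked on its defining transcripts, and Mpo, Ctsg and Fcgr3 were bright in both groups (means of 13.2, 13.1 and 10.7 in L-GMPs, 13.6, 13.2 and 10.7 in GMPs). Of 9 GMP markers, 0 were higher and 4 lower in L-GMPs by limma (0 and 5 at an unadjusted p under 0.05). By the same fit, 4.78% of all genes were higher and 7.27% lower. The 4 were Elane, which fell by most (difference -1.75, adjusted p = 0.0127), Kit (-0.96, adjusted p = 0.0012), Prtn3 (-0.84) and Mpo (-0.39). The Elane call was lost under a trended robust prior and when both L-GMP replicate B and replicate D of the GMPs were omitted (adjusted p 0.00257 to 0.0532 over all alternatives). Hoxa9 read 10.9 to 12.3 in L-GMPs and 6.74 to 6.84 in GMPs in its brighter probe set, but 2.54 to 2.91 against 9.19 to 9.79 in the other, and all 3 Meis1 probe sets were lower in L-GMPs, so these genes do not settle the labels. The Schlafen genes were selected on results of this same contrast, their log2 intensities in L-GMPs against GMPs, so their values are given as a description, with no test. In bulk samples, fewer cells that express a gene and less of its RNA in each cell cannot be told apart.

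**Figure D1:**
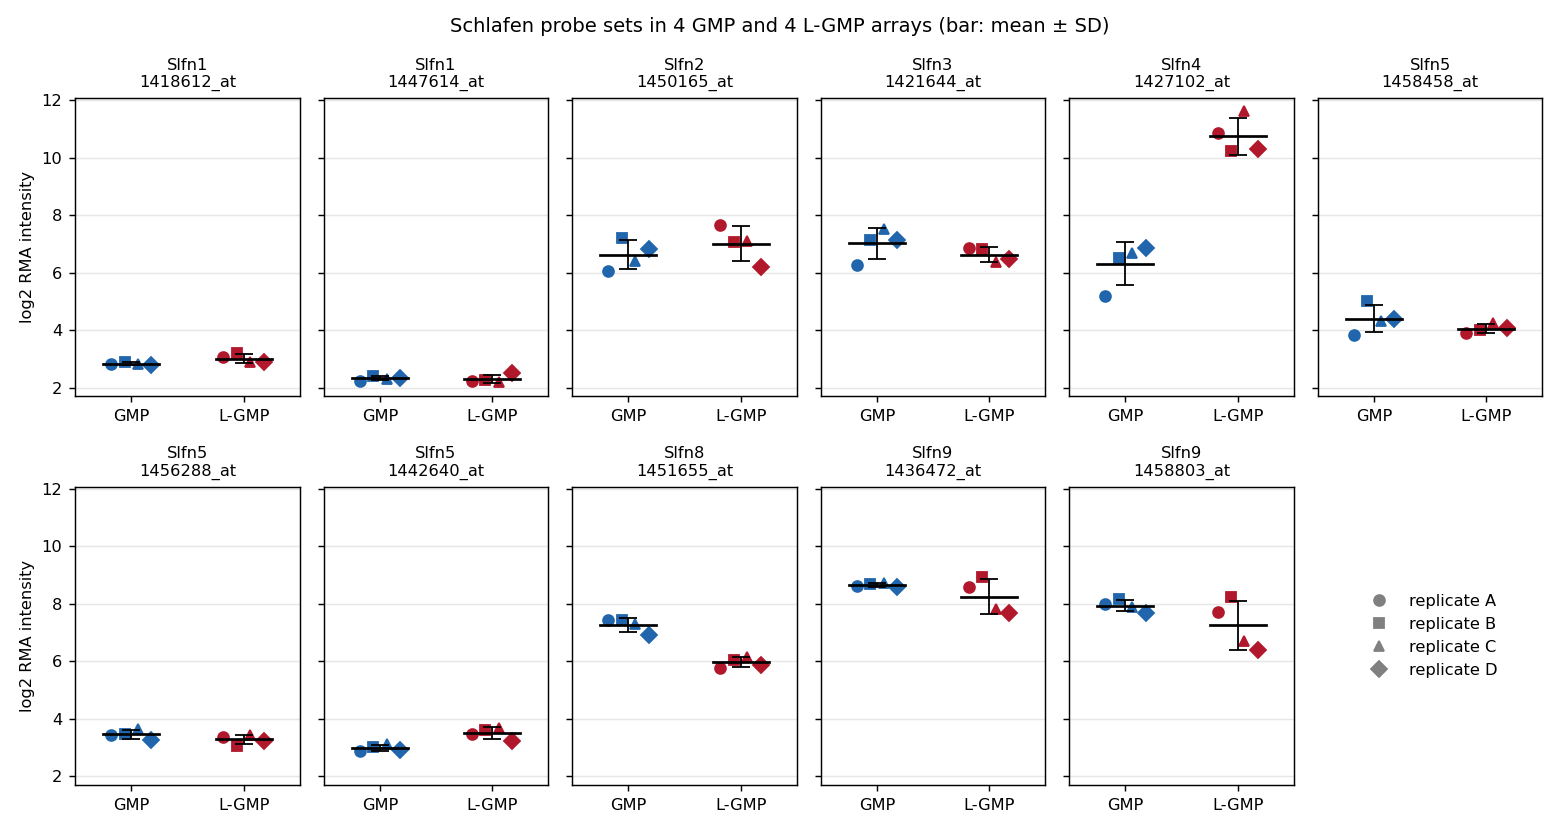
Each panel shows 1 Schlafen probe set, with log2 RMA intensity on the vertical axis, 4 GMP arrays in blue and 4 L-GMP arrays in red. Marker shapes give the replicate letter, and black bars the mean ± SD. Only Slfn4, Slfn8 and Slfn5 1442640_at have groups that do not overlap, and the Slfn9 panels show L-GMP replicates C and D below all other arrays. Levels of different probe sets are not comparable.

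Slfn4, an intermediate member known from macrophages and neutrophils, was far brighter in L-GMPs. Its probe set 1427102_at read 10.84, 10.21, 11.61 and 10.29 in L-GMP replicates A to D. In GMP replicates A to D it read 5.20, 6.52, 6.69 and 6.85. The groups lay more than 3 log2 units apart, and the widest gap within a group was that between GMP replicate A and the other GMP arrays. The difference was 4.43 (SE 0.39), a 21.5-fold higher intensity, with means of 10.7 ± 0.64 in L-GMPs and 6.31 ± 0.76 in GMPs (SD, n = 4). It ranked 7th among the upward differences of all 45037 probe sets. GMP replicate A, the lowest array, was below its own array's median for this probe set. Without that array the difference was 4.05, and it was 4.05 to 4.78 over all 17 alternatives.

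Slfn3, the other intermediate member and the gene next to Slfn4, did not share that difference. Its probe set 1421644_at read 6.87, 6.83, 6.37 and 6.46 in L-GMP replicates A to D. In GMP replicates A to D it read 6.26, 7.14, 7.51 and 7.15. GMP replicate A was the lowest of all 8 arrays, the other GMP arrays were the highest, and the groups therefore overlapped. The mean difference was -0.38 (SE 0.24). It was -0.64 without GMP replicate A and -0.22 without GMP replicate C. The sequences of the array's probes were not used here, so cross-reading between the related Slfn3 and Slfn4 transcripts was not tested. On the L-GMP arrays the probe set of Slfn4 was above its GMP values and that of Slfn3 was not.

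Among the short members, Slfn2, whose loss in mice impairs the quiescence of T cells and monocytes, varied as much within groups as between them. Its probe set 1450165_at read 7.67, 7.07, 7.10 and 6.19 in L-GMP replicates A to D. In GMP replicates A to D it read 6.05, 7.20, 6.41 and 6.84. L-GMP replicate A was the highest array and GMP replicate A the lowest, while L-GMP replicate D lay among the lowest GMP arrays. The difference was 0.38 (SE 0.31), and ranged from 0.16 without L-GMP replicate A to 0.66 without L-GMP replicate D, with 0.19 without GMP replicate A and 0.57 without GMP replicate B. The SD over the L-GMP arrays, 0.61, was above that of 97.5% of all probe sets. The median SD over L-GMP arrays was 0.18 across all probe sets and 0.20 across those with a mean of 7 to 9. The mean of the Slfn2 probe set over the 8 arrays, 6.81, lay just under that range.

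Slfn1, the founding member, gave values near the floor of the scale on every array. Its probe set 1418612_at lay between 2.88 and 3.19 in L-GMPs and between 2.77 and 2.89 in GMPs. The other, 1447614_at, lay between 2.21 and 2.50 in L-GMPs and between 2.24 and 2.41 in GMPs. Both were under the lower quartile of every array. Their differences of 0.18 (SE 0.11) and -0.02 (SE 0.10) are between such dim values, and the second changed sign in 4 of 15 alternatives.

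Slfn8, a long member, was lower in L-GMPs. Its probe set 1451655_at read 5.77, 6.03, 6.17 and 5.88 in L-GMP replicates A to D. In GMP replicates A to D it read 7.44, 7.45, 7.29 and 6.91. All L-GMP arrays were below all GMP arrays, and GMP replicate D, the array with the raised 3' to 5' difference of Gapdh, was the lowest of the GMP arrays. The difference was -1.31 (SE 0.14), a 2.48-fold lower intensity in L-GMPs, with means of 5.96 ± 0.17 in L-GMPs and 7.27 ± 0.25 in GMPs (SD, n = 4). Without GMP replicate D the difference was -1.43, and over all 17 alternatives it was -1.45 to -1.12.

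Slfn9, the long member next to Slfn8, differed among the L-GMP arrays themselves. Its first probe set 1436472_at read 8.58 and 8.94 in L-GMP replicates A and B, and 7.82 and 7.67 in replicates C and D. The GMP arrays stayed within 8.60 and 8.74. L-GMP replicates A and B thus lay beside the GMP arrays, while C and D lay below all of them. The second probe set, 1458803_at, read 7.71, 8.22, 6.70 and 6.39 in L-GMP replicates A to D, in the same order B, A, C, D. The GMP arrays read 7.69 to 8.16 in it, so that C and D were again below every GMP array. The highest and the lowest L-GMP array were 2.41-fold apart in the first probe set and 3.57-fold apart in the second.

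The SD of Slfn9 over L-GMP arrays was 0.61 and 0.86, above that of 97.4% and 99% of all probe sets, against 0.06 and 0.20 over GMP arrays. The mean differences of -0.41 (SE 0.25) and -0.68 (SE 0.34) rest on L-GMP replicates C and D. They were -0.22 and -0.39 without replicate D, and -0.27 and -0.49 without replicate C. Control probe sets differed in the same arrays: the 3' to 5' difference of Actb was 0.04 and 0.09 in L-GMP replicates A and B and 0.23 and 0.24 in C and D. That of Gapdh was 1.34 and 1.24 in A and B and 1.45 and 1.55 in C and D. The second principal component of all probe sets also placed the L-GMP arrays in the order B, A, C, D. The part of these array-wide differences in the Slfn9 values was not tested. GMP replicate D, where the Actb difference was 0.64, had Slfn9 values of 8.60 and 7.69, the lowest of the GMP arrays in both probe sets. GMP replicate B, where it was 0.42, had Slfn9 values of 8.69 and 8.16, the second being the highest of the GMP arrays. Slfn8 showed no such division, since L-GMP replicate C was its highest L-GMP array.

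The genes whose 8 values were most like those of Slfn9 1436472_at were looked up after the Slfn9 values had been seen. Likeness was the root mean square difference of the 8 log2 values after each gene's own mean was subtracted, over genes with 1 probe set each. The nearest was Smpdl3a, a phosphodiesterase related to acid sphingomyelinase, at 0.11, followed by Prkcb, a protein kinase C, and Dennd2d, both at 0.15. Nans, a sialic acid synthase, and Tyms, the thymidylate synthase, followed at 0.16 each. All 5 were lower in L-GMP replicates C and D than on the other 6 arrays, with Smpdl3a at 8.34 and 8.32 there and at 9.19 to 9.48 elsewhere. None of the 5 passed the limma threshold between L-GMPs and GMPs (adjusted p 0.139 to 0.254), although Dennd2d and Nans each passed it under 1 of 17 alternatives. The choice by likeness to Slfn9 largely fixed both outcomes, so neither is evidence about Slfn9.

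**Figure D2:**
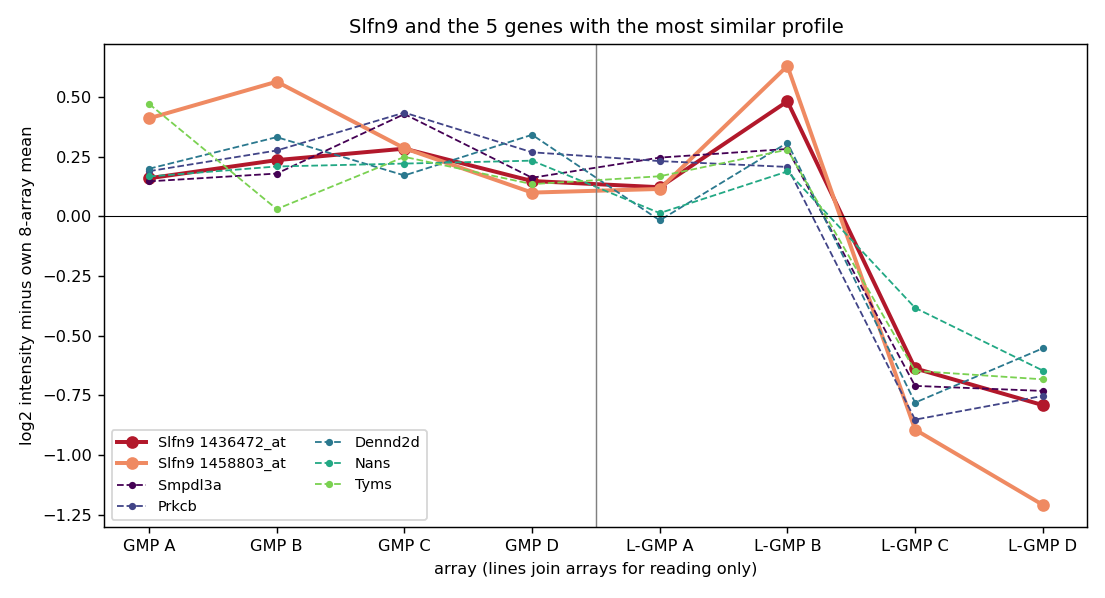
Log2 intensity minus each gene's own mean over the 8 arrays (vertical axis) is plotted by array, with GMPs left and L-GMPs right of the grey line. Thick lines are the Slfn9 probe sets and dashed lines the 5 genes with the most similar profile, which were chosen for that. In L-GMP replicates C and D all 7 lines lie below 0.

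Slfn5, a long member induced by interferon and known as a repressor of transcription, was read by 3 probe sets that disagreed. Probe set 1442640_at read 3.46, 3.62, 3.69 and 3.24 in L-GMP replicates A to D and 2.90, 3.01, 3.13 and 2.91 in GMPs. The groups did not overlap, with a difference of 0.52 (SE 0.12), but 7 of the 8 values were under their array's lower quartile. With 16 added to the intensities before the log, the difference was 0.20. Probe set 1458458_at, which was above the lower quartile on all 8 arrays, read 3.90 to 4.25 in L-GMPs and 3.85 to 5.01 in GMPs, with a difference of -0.34 (SE 0.21). Probe set 1456288_at was under the lower quartile on every array, with a difference of -0.18 (SE 0.12). The direction for Slfn5 is therefore not settled by these arrays.

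In all, the groups did not overlap in 3 of the 11 Schlafen probe sets, 2 with L-GMPs higher and 1 with L-GMPs lower. Over all probe sets the groups did not overlap in 17.1%, with L-GMPs higher in 7.38% and lower in 9.76%. Mean differences were above 0 in 4 and below 0 in 7 of the 11.

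**Figure D3:**
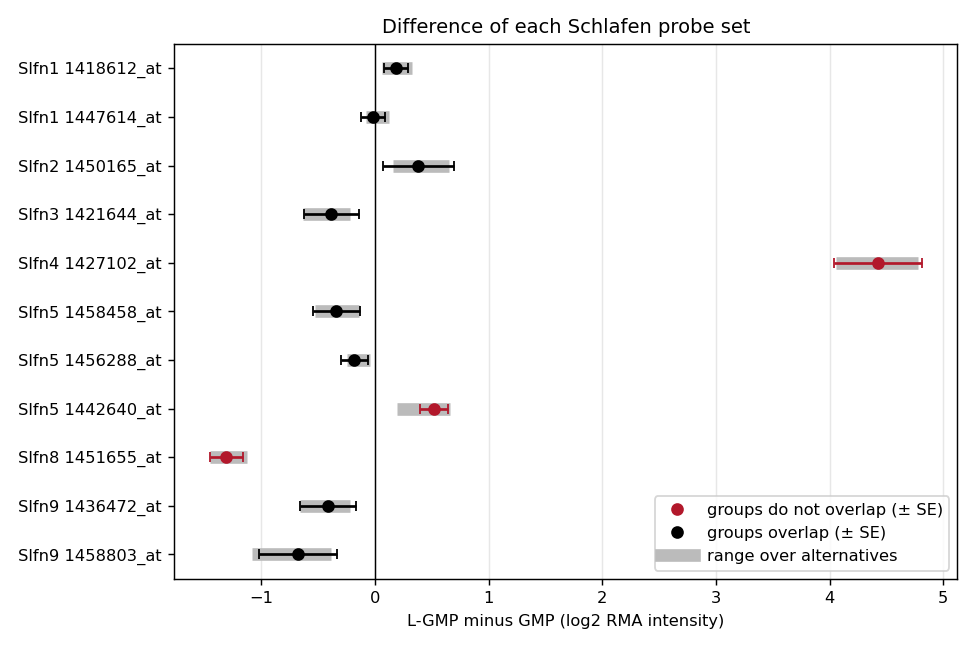
Points show the difference L-GMP minus GMP in log2 RMA intensity (horizontal axis) for each Schlafen probe set, with the SE as a bar, and grey bands show the range over the alternative settings. Slfn4 at 4.43 and Slfn8 at -1.31 lie farthest from 0 in either direction, and the band of Slfn1 1447614_at crosses 0.

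Of 3 further symbols that start with Slfn and are not among the 7 genes, Slfn10-ps, a pseudogene between Slfn8 and Slfn2, was lower in L-GMPs. It read 4.33 to 5.71 in L-GMPs and 5.72 to 6.43 in GMPs, with a difference of -0.98 (SE 0.27, adjusted p = 0.0437 over all probe sets by limma). Of all probe sets, 10.9% passed this threshold, 3.89% with L-GMPs higher and 7.03% with L-GMPs lower. The call was narrow: it was lost in 11 of 17 alternatives, among them whenever an array other than replicate C of the L-GMPs was omitted (adjusted p 0.0112 to 0.125 over all alternatives). Slfn5os, an RNA listed apart from Slfn5, had a difference of -0.02 (SE 0.19, adjusted p = 0.961), and Slfnl1, a related gene on another chromosome, of 0.30 (SE 0.17, adjusted p = 0.299).

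Genes on either side of the Schlafen cluster were compared next. Of the 10 protein-coding genes on each side, 17 were measured, and by limma 1 was higher and 0 were lower in L-GMPs (4 and 1 at an unadjusted p under 0.05). Of all genes, 4.78% were higher and 7.27% lower, 12.1% together. The gene that rose was Ccl9, a chemokine of myeloid cells, by 0.60 (SE 0.13, adjusted p = 0.0121). The nearest measured neighbours were Unc45b on one side (difference 0.34, adjusted p = 0.217) and Ap2b1 on the other (-0.36, adjusted p = 0.0965). The median difference over the 17 was 0.04, against 0.01 over all 18193 genes. After each array was centred on its median, 3 neighbours were higher, without GMP replicate A 1 was higher and 1 lower, and the median of all genes moved from 0.01 to 0.15. That centring also changed the balance of calls over all genes, from 39.7% higher of 2193 to 70.1% higher of 3084, against 49.5% of 2531 after quantile normalization.

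Interferon-stimulated genes, the wider group that many Schlafen genes belong to, were mostly lower in L-GMPs, opposite in direction to Slfn4 and the same as Slfn8. Of 46 measured, which include no Schlafen gene, 21 fell, 4 rose and 21 were not called. The median difference was -0.55 against 0.01 over all genes, with 37 differences below 0 and 9 above. Ifi204, among those that fell, and Mx2, which was not called, were under the lower quartile on every array. By the same fit, 7.27% of all genes fell and 4.78% rose. Samd9l, an antiviral growth inhibitor, fell by 2.22 (SE 0.20, adjusted p = 3.76e-05), to an L-GMP mean of 2.96 near the floor of the scale. Ifitm3, which blocks the entry of viruses and was bright in both groups, read 8.99 to 10.1 in L-GMPs and 11.4 to 11.6 in GMPs. It fell by 2.07 (SE 0.20, adjusted p = 8.83e-05). Rtp4 fell by 1.84 and Gbp2, an interferon-induced GTPase, fell by 1.70. Ddx58, the RNA sensor RIG-I, fell by 1.52 (SE 0.21, adjusted p = 0.00103). Usp18, a feedback inhibitor of the interferon receptor, fell by 1.45 to an L-GMP mean of 3.13, under the lower quartile, a call lost in 8 of 15 alternatives (adjusted p 0.00362 to 0.0849).

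The 4 members that rose were Phf11d (1.27), Tap1 (0.68), Psmb9 (0.59) and Gbp3 (0.55), chosen after their values were seen. Tap1 and Psmb9 serve the presentation of peptides on MHC class I. Psmb8, a subunit of the same immunoproteasome and the brightest gene of the list, had a difference of 0.29 (adjusted p = 0.117, and 0.0192 to 0.267 over all alternatives). On each array, the mean deviation of the 46 genes from their own 8-array means was between -0.39 and -0.17 in L-GMPs and between 0.02 and 0.51 in GMPs. GMP replicate A was the lowest of the GMP arrays by this measure, as it was for Slfn2, Slfn3 and Slfn4. Among L-GMPs it was -0.39 in replicate A, -0.17 in B and -0.29 in both C and D, an order other than that of Slfn9. The count of changed genes was 16 in place of 25 without L-GMP replicate A or without GMP replicate D, 2 of them higher and 14 lower in each case, and 18 with both L-GMP replicate B and replicate D of the GMPs omitted.

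**Figure D4:**
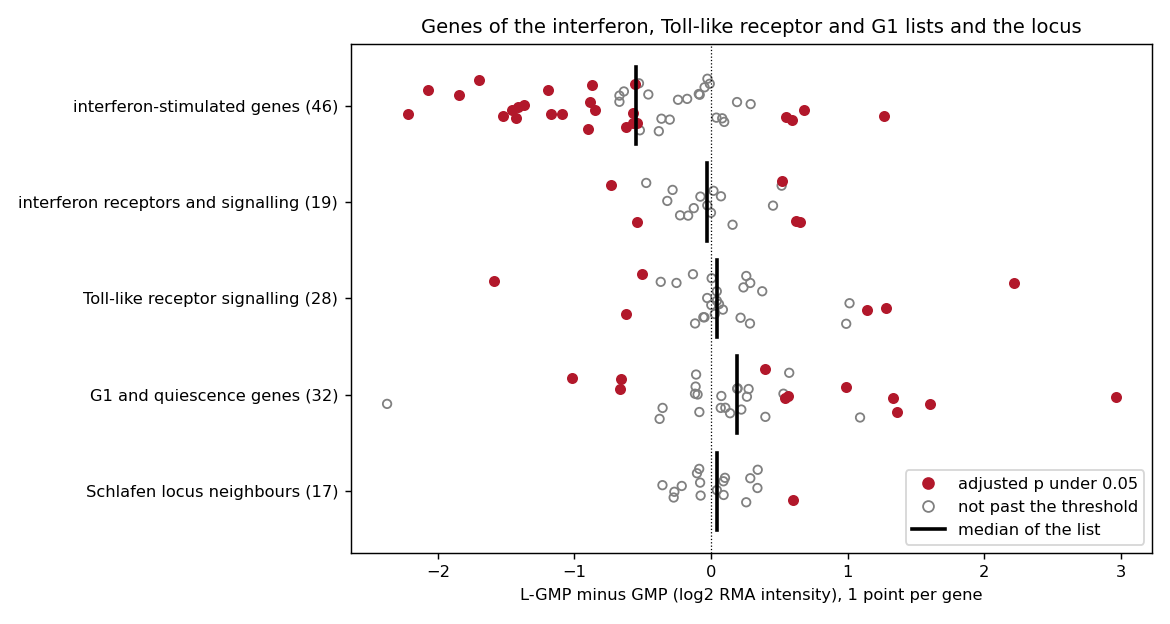
Each point is 1 gene, placed by its difference L-GMP minus GMP in log2 RMA intensity (horizontal axis), with red points past an adjusted p of 0.05 and black lines at each list's median. Numbers in brackets are measured genes. Most red points of the interferon-stimulated list lie below 0, with a median of -0.55, while the medians of the 4 other lists plotted (interferon receptors and signalling, Toll-like receptor signalling, G1 and quiescence, locus neighbours) lie between -0.03 and 0.19.

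Receptors and signal carriers of the interferon pathway held 5 calls among 19 genes read, 3 of them higher and 2 lower in L-GMPs, where 12.1% of all genes were called, and the median difference was -0.03 against 0.01 over all genes. The receptor chains Ifnar1 and Ifnar2, which bind type I interferon, rose by 0.65 (SE 0.16, adjusted p = 0.026) and 0.52 (SE 0.15, adjusted p = 0.0446), and Ifngr1, of the interferon gamma receptor, by 0.62 (SE 0.17, adjusted p = 0.0351). Irf9, a transcription factor of the interferon response, fell by 0.73 (SE 0.15, adjusted p = 0.0117) and Irf1 fell by 0.54 (SE 0.13, adjusted p = 0.0196). Of these 5 calls only that of Irf9 held in all 17 alternatives. The calls of Ifnar1, Ifnar2, Ifngr1 and Irf1 were lost in 6, 9, 4 and 4 of them. Without single arrays the count ranged from 1, when GMP replicate B was left out, to 6. It was 2 without L-GMP replicate A, GMP replicate C or GMP replicate D, and 3 without L-GMP replicate C or D. After median centring the median of the list was 0.11, against 0.15 over all genes.

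Toll-like receptor signalling, the other route known to induce Slfn4, changed in both directions. Of 28 measured genes 3 rose and 3 fell, with a median of 0.04, and after median centring 5 rose and 2 fell. Before centring, 4.78% of all genes rose and 7.27% fell. Tlr1, a receptor for bacterial lipoproteins, rose by 2.22 (SE 0.33, adjusted p = 0.00154). Jun, an AP-1 subunit and the brightest gene of the list, rose by 1.28 (SE 0.23, adjusted p = 0.00525), and Nfkbia, the inhibitor of NF-kB, by 1.14 (SE 0.21). Tlr4, the receptor for lipopolysaccharide, fell by 1.59 (SE 0.45, adjusted p = 0.0446) with groups that overlapped, and 7 of 17 alternatives lost this call (0.00197 to 0.113). Its partner Ly96 fell by 0.62 and the adaptor Ticam1 fell by 0.51, the last lost in 7 of 17 alternatives, both other scalings included (adjusted p 0.00839 to 0.0959).

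Because the family was named for growth arrest, G1 phase and quiescence genes were also read. Of 32 measured, 8 rose and 3 fell, with a median of 0.19 against 0.01 over all genes, or 0.33 against 0.15 after median centring. Before centring, 4.78% of all genes rose and 7.27% fell. Klf2, a factor that keeps T cells quiescent, rose by 2.97 (SE 0.42, 7.81-fold, adjusted p = 0.00115). Ccnd1, the G1 driver cyclin D1, rose by 1.60 (SE 0.24, adjusted p = 0.00163), and Tsc22d3, Klf6 and the growth inhibitor Btg1 rose by 1.36, 1.33 and 0.99. The other D cyclins, added after their values were seen, were not called. Ccnd2 had a difference of -2.37 (adjusted p = 0.0599), with 6.04 to 10.2 in L-GMPs, and Ccnd3 of 0.08 (adjusted p = 0.838). Ccne2, cyclin E2, fell by 1.02 (SE 0.14, adjusted p = 0.00106). Cdk6, the brightest, had a difference of -0.12 (adjusted p = 0.587). Both promoters and inhibitors of division were thus among the genes that rose. The count was 7 in place of 11 when replicate A of the L-GMPs or replicate B, C or D of the GMPs was omitted.

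Genes with the profile most like Slfn4, the Schlafen probe set with the widest range over the 8 arrays, were found with the same measure as for Slfn9. They were Gpnmb, a glycoprotein of macrophages, at 0.53, F7, coagulation factor VII, at 0.57, Klhl41 at 0.58, Sgip1 at 0.69 and Hoxa9 at 0.72. Gpnmb read 10.1, 8.77, 9.51 and 8.45 in L-GMP replicates A to D and 4.38, 5.82, 5.81 and 5.07 in GMPs. Gpnmb, F7 and Klhl41 shared with Slfn4 the lowest GMP value in replicate A, while Sgip1 and Hoxa9 did not. All were chosen for likeness to Slfn4 over these arrays. Hoxa9 entered through its brighter probe set only. All 5 were higher in L-GMPs, by 3.54 (Sgip1) to 5.09 (F7), a direction fixed by their choice for likeness to Slfn4. The mean of all Hoxa9 probe sets, however, was lower in L-GMPs, with a difference of -0.92.

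Markers of other cells also differed between the groups, in both directions. By limma, 4.78% of all genes rose and 7.27% fell. Of 11 monocyte and macrophage markers, 7 rose and 1 fell, Cd68 by most, with a rise of 2.48 (adjusted p = 9.92e-06). Their summed intensity was 11457 to 15993 on the L-GMP arrays and 6416 to 7134 on the GMP arrays, and none was under the lower quartile on all arrays. F13a1, the brightest, rose by 1.57 (adjusted p = 2.45e-06). Of 11 neutrophil markers 1 rose, Cd177 by 4.28 (adjusted p = 5.17e-05), and 3 fell. Those 3 were S100a8 (-3.82, adjusted p = 0.00425), Cxcr2 (-1.37) and Padi4 (-1.125). The median of this list was -0.67, with sums of 762 to 2377 in L-GMPs and 989 to 4432 in GMPs. The brightest, S100a9, had a difference of -2.70 (adjusted p = 0.0695). The part of these markers in the higher Slfn4 level was not tested.

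Lymphoid and dendritic markers, from cells in which Schlafen genes are also known, showed no calls. By limma 0 of 10 T and NK cell markers, 0 of 9 B cell markers and 0 of 9 dendritic cell markers passed, with 1 higher in each list at an unadjusted p under 0.05. Over all genes, 12.1% passed. The summed intensity of the T and NK markers was 271 to 330 in L-GMPs and 259 to 298 in GMPs, and the T cell receptor components Cd3d, Cd3e and Cd3g had means of 3.65 to 4.17. Ncr1 of this list and Ms4a1 and Blnk of the B cell list were under the lower quartile on every array. Sums were 485 to 821 and 487 to 569 for the B cell list, and 4179 to 5201 and 3799 to 4393 for the dendritic list, L-GMPs first. The brightest members were Zap70, Cd79b and Cst3 (differences 0.25, -0.40 and 0.17, adjusted p 0.387, 0.275 and 0.348).

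Markers of 2 further lineages were lower in L-GMPs, alongside Slfn8. Over all genes, 4.78% rose and 7.27% fell by limma. Of 9 erythroid and megakaryocyte markers 0 rose and 5 fell (0 and 7 at an unadjusted p under 0.05), where Pf4 fell by 5.10 and the brightest, Itga2b, fell by 1.68. Of 9 eosinophil, basophil and mast cell markers 0 rose and 7 fell (0 and 8), where Prg2 fell by 5.20 and Mcpt8, the brightest, had a difference of -0.46 (adjusted p = 0.253). Summed intensities were 254 to 356 in L-GMPs and 605 to 2232 in GMPs for the first list, and 643 to 1531 and 4459 to 11008 for the second. The part of these cells in the lower Slfn8 level was not tested.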

How the data were processed

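Total RNA was measured on 8 Affymetrix arrays. Per the submitters' processing notes the authors used RMA, which corrects background, normalizes arrays and summarises probe sets, and deposited linear intensities (3.54 to 29746.73, the scale being read from the values). Log2 was taken here. The RMA version and a genome build for the arrays are not given in the sources used here, and the labels name a whole transcript sense assay, so the strand that is read is unknown. Of 45101 probe sets, 64 controls were left out and 34945 had 1 symbol.

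Limma (version 3.58.1, R 4.3.3) fitted group alone, 2-sided, with Benjamini-Hochberg adjustment at 0.05, once over 45037 probe sets (Schlafen probe sets and other Slfn symbols) and once over 18193 genes, each by its brightest probe set on average (lists). SE is that of the moderated fit. The fit was tested on simulated data. A planned comparison of Schlafen proteins was not made. Promoters were aligned with Biopython (version 1.88), with free end gaps. The number of arrays limits the precision.

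Schlafen members and gene lists were chosen with earlier results of these data known. Named genes were all members, other Slfn symbols, up to 6 called genes per list (1 per marker list) with the largest change, each list's brightest gene, called neighbours, and the 5 genes most like the Schlafen probe set with the widest range. Alternatives were 2 other scalings, 2 filters on dim features, the mean of probe sets, an offset of 16, limma's trended robust prior, weighting of arrays, a block for the replicate letter, and omission of arrays.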

Additional observations from a re-analysis of the deposited data

Results flagged for a closer look

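In 126 groups of 4 arrays (the Schlafen and other Slfn probe sets and the named genes, in each group), a single array stood away from the other 3 in 5 by Dixon's ratio, its gap to the nearest array over the whole range of the group. Chance alone gives about 1 in 20. None was a Schlafen probe set. GMP replicate A was that array for Tlr4 (ratio 0.902, value 7.33 against 7.95 to 8.02), Ly96 (0.889, 5.95 against 5.61 to 5.65) and Cd68 (0.884, 6.70 against 6.87 to 6.89). L-GMP replicate C was high for Prg2 (0.859, 6.37 against 4.44 to 4.72), and GMP replicate C for Smpdl3a (0.884, 9.48 against 9.19 to 9.23).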

How the results depend on the processing

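No Schlafen probe set whose groups did not overlap changed sign in any alternative. For these, only the 2 other scalings could have changed it. Omitting or weighting arrays, the filters, the prior, the block and the offset cannot reverse groups that do not overlap. Of the other Schlafen probe sets only Slfn1 1447614_at changed sign, in 4 of 15. Of the dim probe sets, Slfn1 1418612_at was 0.32 after median centring and 0.06 with the offset of 16. Leaving out 1 array at a time gave 1411 to 2388 called genes, 2972 to 5334 called probe sets, 16 to 24 called interferon-stimulated genes, 1 to 6 interferon signalling genes, 4 to 8 Toll-like receptor genes, 7 to 13 G1 genes and 1 to 2 locus neighbours. The lowest counts over all genes were without GMP replicate B (1411) and GMP replicate D (1425). Without the dimmest 50% of genes, 16 interferon-stimulated genes of the 26 left and 2 neighbours were called. Neighbours called were 3 after median centring, 3 with array weights and 3 in the mean of probe sets. The mean of its probe sets gave Hoxa9 a difference of -0.92. The cause of these changes was not tested. No pairing by replicate letter was seen: correlations of same-letter deviations were -0.07 to 0.103, and 2 of 8 arrays correlated best with their own letter. The labels do not say whether arrays of the same letter were prepared together, and these correlations cannot decide it. With the replicate block, 1760 genes and 4077 probe sets were called, 25 of them interferon-stimulated. Dim values near the floor limit what both Slfn1 probe sets and Slfn5 1442640_at and 1456288_at can show.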
